A study of Mus musculus with 5 samples.

Results

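The stromal cells of the mouse temporomandibular joint (TMJ) disc, a plate of fibrocartilage that cushions the jaw joint, were compared between 78 w and 16 w. A stromal cell was a barcode with at least 1000 unique molecular identifiers (UMIs, each standing for 1 captured transcript), of which at most 30% were mitochondrial and at least 1% came from Col1a1, Col1a2, Col3a1, Dcn, Fmod, Bgn and Lum together. It also held no UMI of Pecam1, Cdh5, Ptprc, Tyrobp, Rgs5 or Alas2, which mark endothelial, blood and mural cells. These rules kept 7121 of 8786 barcodes at 16 w and 7789 of 10125 at 78 w, that is 14910 of 18911 in the compared libraries, out of 51948 barcodes in the whole series. The 78 w and 16 w discs came from untreated male wild-type (WT) C57BL/6 mice, and the number of animals per library is not given in the sources used here. The series also holds untreated discs of the same strain at 3 d and 3 w, and discs of 7-week-old WT C57BL/6 mice after needle injury. Each age is 1 library, so no difference below has a replicate check and no test was possible. Age also cannot be told apart from the day of dissection, digestion and library making. Levels are CPM, that is, the total UMIs of a gene in all stromal cells of 1 library per 1000000 UMIs of those cells. The 95% intervals are exact and cover counting error only.

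The stromal cells of the disc are fibroblasts and fibrochondrocytes, which make the collagen bundles that carry tension, the proteoglycans that hold water under load, and, near the surface, the lubricin and hyaluronan that let the disc slide. Type I collagen fibrils are covered by small leucine-rich proteoglycans such as decorin, lumican and fibromodulin, which set fibril width and spacing. Such cells also respond to load, hormones and injury through immediate early transcription factors, metallothioneins, chemokines and complement.

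The stromal cells held 73474650 UMIs at 16 w and 84199710 at 78 w, with a median of 9472 and 9764 UMIs and of 2605 and 2642 genes per cell. Mitochondrial transcripts made up 3.23% of these UMIs at 16 w and 2.51% at 78 w. The 7 genes of the rule took a median of 3.65% of a cell's UMIs at 16 w and 3.64% at 78 w. In the 0.1 percentage points above the 1% limit lay 36 cells at 16 w and 41 at 78 w, and 18 and 35 lay in the same band below it. Dcn (decorin), a marker of the label, had a UMI in 99.9% of cells at 16 w and 99.97% at 78 w once every cell was reduced to 1000 randomly drawn UMIs (thinned). Col1a1, the other marker, had a UMI in 45.1% and 34.2% of thinned cells. Both are genes of the rule, so these values only describe the cells. Markers of other cell types were low. Endothelial markers summed to 41.8 CPM at 16 w and 107.8 at 78 w, most of it Ly6c1, which adventitial fibroblasts also express, at 32.9 and 93.9 CPM. Leukocyte markers summed to 9.69 and 22.6 CPM and erythroid markers to 2.83 and 9.82 CPM. Mural markers summed to 211.8 and 203.2 CPM, and 28 barcodes occurred in both libraries. For comparison, endothelial cells of the same libraries were taken as barcodes with at least 2 UMIs of Pecam1 and Cdh5, 547 at 16 w and 619 at 78 w, with median depths of 5897 and 5280 UMIs.

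Most genes differed little between the ages. Of 7568 genes with at least 10 CPM in either library, 77.0% had a CPM ratio, 78 w over 16 w, between 0.8 and 1.25, and the median ratio was 0.966. A ratio above 1 was held by 43.4% of those measured, so that counts of list members below 1 start from a majority. At least 2-fold higher at 78 w were 91 genes (1.20% of those measured), and at least 2-fold lower were 30 (0.396%). These shares are the background against which each gene list below is read. At 1.5-fold the numbers were 255 higher and 190 lower.

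**Figure D1:**
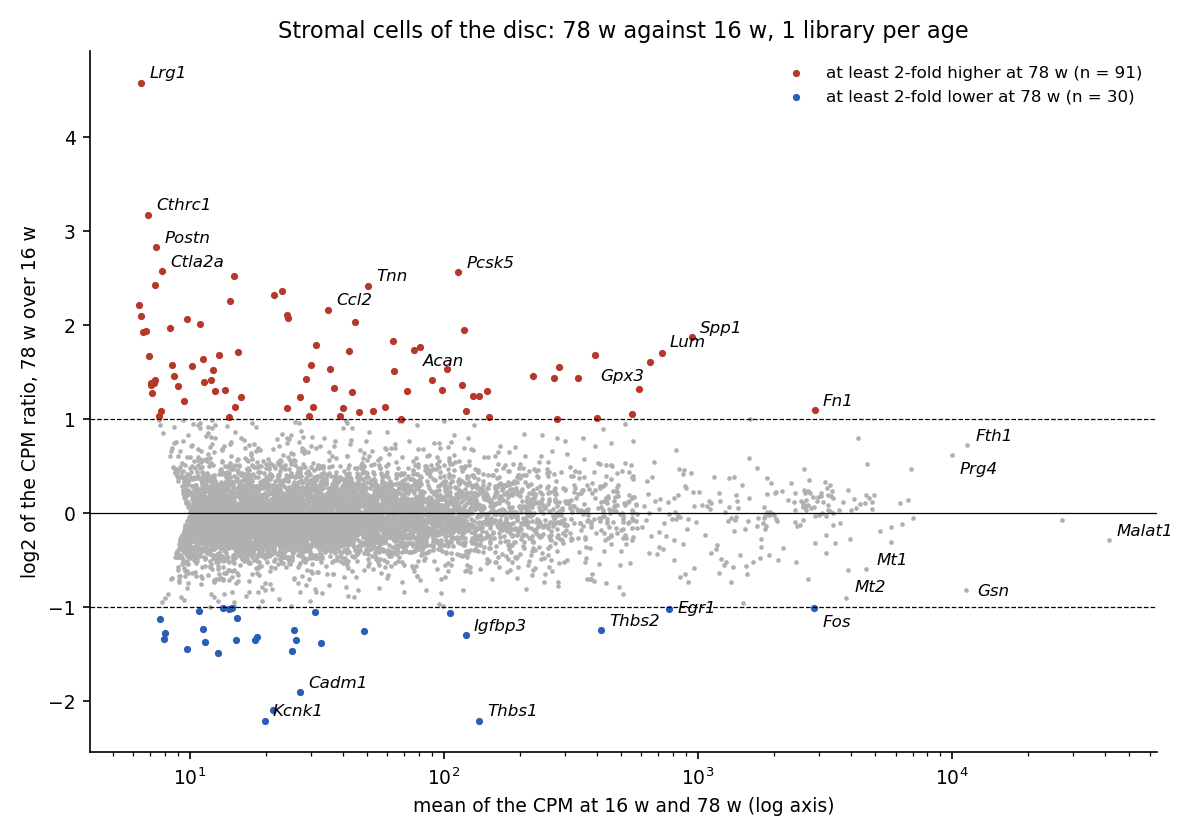
CPM ratio of each of 7568 genes in stromal cells (log2, 78 w over 16 w, vertical axis) against the mean of its 2 levels in CPM (log axis), each point being 1 gene. Red points are the 91 genes at least 2-fold higher at 78 w and blue points the 30 genes at least 2-fold lower, between dashed lines at 2-fold. The genes of the highest levels, such as Gsn, Mt2, Prg4 and Fth1, lie inside the lines, and of the labelled genes Lrg1 lies farthest from them.

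Among the genes of lubricin, aggrecan and hyaluronan, 3 of 9 measured members were at least 2-fold higher at 78 w and none was 2-fold lower, with a median ratio of 1.54. Prg4, which encodes lubricin, the boundary lubricant of joint surfaces, stood at 7868 CPM at 16 w and 12097 at 78 w. Its ratio of 1.54 (95% interval 1.53 to 1.54) lay under 2-fold but was among the 8 largest gains in CPM, and Prg4 was higher at 78 w in each of 8 stromal clusters, by 1.31 to 1.90 times. Acan, the large aggregating proteoglycan of cartilage, stood at 35.2 and 117.6 CPM, a ratio of 3.34 (3.20 to 3.49). Tnfaip6, which binds hyaluronan and transfers heavy chains onto it, stood at 187.3 and 602.4 CPM, a ratio of 3.22 (3.16 to 3.28). Has1, a hyaluronan synthase, was just past 2-fold, at 98.7 and 201.5 CPM. Hapln1, which links aggrecan to hyaluronan, stood at 86.3 and 133.0 CPM, and the hyaluronan receptor gene Cd44 at 265.2 and 273.8 CPM. Vcan, another large proteoglycan, stood at 83.4 and 77.6 CPM.

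Small leucine-rich proteoglycans did not move together. Their median ratio was 1.01 over 12 measured members, with 6 members above 1 and 6 below. Lum (lumican), itself a gene of the rule, was the only member past 2-fold, at 338.4 CPM at 16 w and 1102 CPM at 78 w, with a ratio of 3.26 (3.21 to 3.30). With Lum left out of the rule, the number of genes at least 2-fold higher was 90 and the Lum ratio moved by less than its interval. Thinned cells with a Lum UMI made up 23.6% at 16 w and 50.7% at 78 w, against 4.75% and 8.56% of endothelial cells. Before thinning, the stromal shares were 61.4% and 88.1%. Dcn stood at 27926 and 26560 CPM, Fmod (fibromodulin) at 4387 and 4718 CPM, and Bgn (biglycan) at 3979 and 4066 CPM. Chad (chondroadherin), which binds collagen and integrins, was lower at 78 w, at 3366 and 2072 CPM with a ratio of 0.615 (0.612 to 0.619), and was lower in all 8 clusters.

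The matrix glycoproteins held members at both ends of the distribution: 6 of 31 were at least 2-fold higher at 78 w and 2 at least 2-fold lower, with a median ratio of 1.22. Cthrc1, a secreted protein of repairing and growing connective tissue, stood at 1.36 CPM at 16 w and 12.3 at 78 w, with a ratio of 9.05 (7.36 to 11.2). Postn (periostin), a matrix protein of ligaments and periosteum, stood at 1.82 and 13.0 CPM, a ratio of 7.11 (5.94 to 8.57). Both were concentrated in few cells at 78 w: 90.2% of the Postn UMIs and 61.7% of the Cthrc1 UMIs lay in the 78 cells with the most of each gene. In cluster 6, where Postn was among the leading genes, Postn stood at 2.03 and 145.5 CPM. With clusters weighted equally the ratio was 3.73 for Postn and 4.21 for Cthrc1, and without clusters 5 and 8 it was 20.6 and 16.5. Fn1 (fibronectin) differed more evenly, at 1835 and 3932 CPM with a ratio of 2.14 (2.13 to 2.16), and was higher in all 8 clusters by 1.495 to 3.80 times. Tnc (tenascin C), a glycoprotein of loaded and healing tissue, stood at 29.9 and 62.9 CPM, Edil3 at 4.36 and 17.6 CPM, and Ecm1 at 186.0 and 372.1 CPM, just past 2-fold and missing it under 7 of 15 alternatives. Tnn (tenascin N), a relative of Tnc placed here in a list of tendon and bone genes, stood at 15.8 and 84.5 CPM, a ratio of 5.36 (5.03 to 5.70), and was higher in all 8 clusters. Comp, a pentameric protein that assists collagen assembly, stood at 5792 and 8049 CPM.

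Both thrombospondins that inhibit angiogenesis were lower at 78 w. Thbs1, which also activates latent TGF-beta, stood at 226.4 CPM at 16 w and 49.1 at 78 w, with a ratio of 0.217 (0.210 to 0.224). It shared the smallest ratio with Kcnk1, a potassium channel, among measured genes with a UMI in at least 1% of 16 w cells. Thbs2 stood at 585.7 and 247.1 CPM, a ratio of 0.422 (0.415 to 0.429). Each was lower in all 8 clusters, Thbs1 at 0.076 to 0.808 times its 16 w level and Thbs2 at 0.325 to 0.717 times.

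In CPM summed over all stromal cells, the type I collagen genes were close to level, but the fibrillar collagens as a list were not alike in every cluster. Of 10 measured fibrillar collagens, 2 were at least 2-fold higher at 78 w and none lower, with a median ratio of 1.18. At least 1.5-fold higher were 4 of the 10, and the medians within the 8 clusters ran from 0.844 to 2.57. The chains of type I collagen, Col1a1 and Col1a2, are genes of the rule and had ratios of 0.955 (0.945 to 0.965) and 0.928 (0.921 to 0.935). The 1% of cells with the most Col1a1 held 9.87% of its UMIs at 16 w and 25.9% at 78 w. The share of thinned cells with a Col1a1 UMI, given above, was lower at 78 w, so the summed level does not describe most cells. Col3a1, a gene of the rule as well, stood at 629.7 and 1005 CPM. The members past 2-fold were cartilage collagens. Col2a1 stood at 52.8 CPM at 16 w and 153.4 at 78 w, with a ratio of 2.91 (2.80 to 3.01), and Col11a2 at 7.24 and 17.9 CPM. For Col2a1 the ratio was 1.13 once cluster 8 was left out, a choice made after seeing the data, and 70.2% of its UMIs at 78 w lay in 78 cells. The Col11a2 ratio was 1.69 without that cluster and 1.68 with clusters weighted equally. Cluster 8 held 1.35% of stromal cells at 16 w and 6.37% at 78 w, and cluster 5, which other genes below turn on, held 7.81% and 12.8%. These shares are a description, since Col2a1 and other genes that differ helped to form the clusters. Within cluster 8 Col2a1 stood at 1100 and 1211 CPM. None of 25 genes of collagen processing and cross-linking was past 2-fold, but 20 of the 25 had ratios above 1 and the median was 1.17. In that list Pcolce, which helps cleave procollagen, stood at 239.1 and 369.5 CPM, Ppib, a prolyl isomerase, at 357.9 and 512.4 CPM, and the collagen chaperone gene Serpinh1 at 395.8 and 510.7 CPM.

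**Figure D2:**
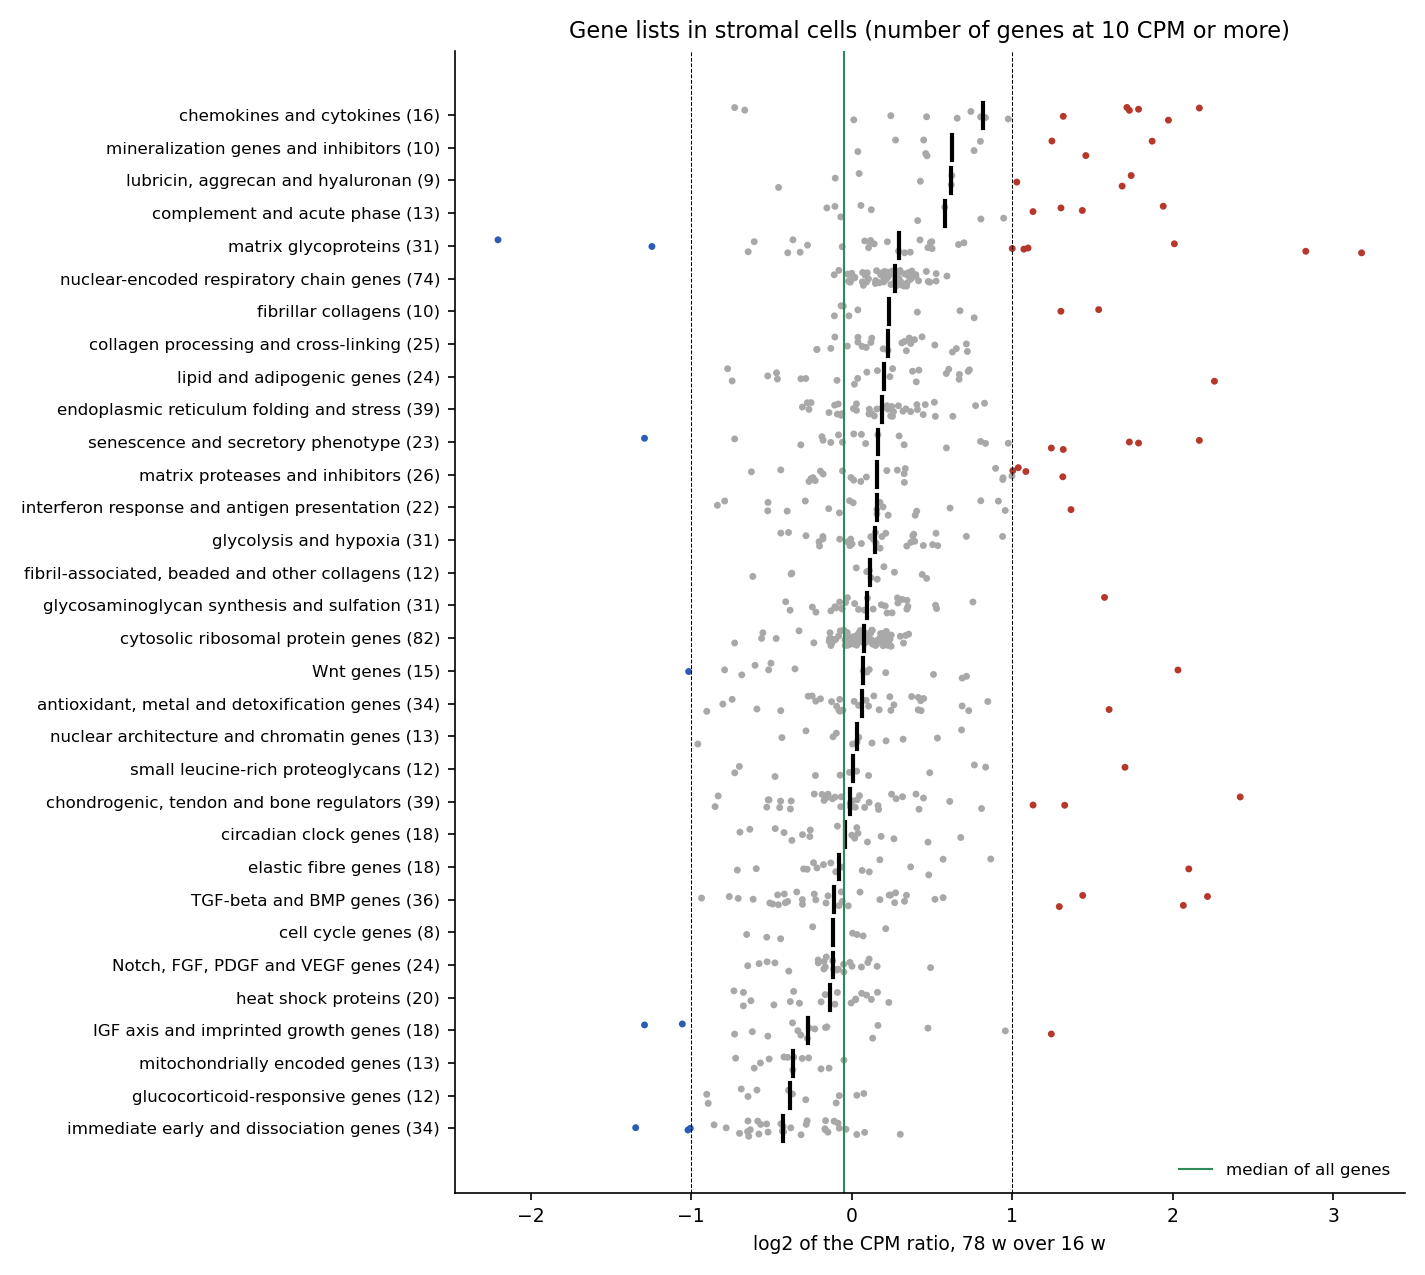
CPM ratio, 78 w over 16 w (log2, horizontal axis), of the measured members of 32 gene lists in stromal cells, each point being 1 gene and each black bar the median of its list, with the number of genes in brackets. The lists run from chemokines and cytokines (median 1.76) to immediate early genes (median 0.742), beside the median of all genes at 0.966 (green line).

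Among matrix proteases and their inhibitors, 4 of 26 were at least 2-fold higher at 78 w and none lower, with a median ratio of 1.115. They were inhibitors and proteases alike. Timp1, an inhibitor of metalloproteases, stood at 56.3 and 140.2 CPM, a ratio of 2.49 (2.40 to 2.58), and Serpina3n, a serine protease inhibitor, at 78.3 and 166.1 CPM. Fap, a serine protease of activated fibroblasts, stood at 45.0 and 90.2 CPM and Mmp19, a metalloprotease, at 4.97 and 10.2 CPM. Both lay on the limit, and Fap missed it under 6 and Mmp19 under 3 of 15 alternatives. Htra1, a secreted serine protease that cleaves proteoglycans and fibronectin, lay just outside the limit, at 1075 and 2147 CPM with a ratio just under 2-fold (1.98 to 2.02). Timp2 and Timp3 stood at 768.1 and 765.7 CPM and at 750.3 and 655.4 CPM.

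All 10 measured mineralization genes and inhibitors had ratios above 1, with a median of 1.54, and 3 were past 2-fold. Spp1 (osteopontin), a phosphoprotein of bone and of mineral deposits, stood at 406.2 CPM at 16 w and 1487 at 78 w, with a ratio of 3.66 (3.62 to 3.71). Thinned cells with an Spp1 UMI made up 12.9% and 24.4% of stromal cells (31.3% and 51.2% unthinned), against 3.11% and 6.62% of endothelial cells. Spp1 was higher in 7 of 8 clusters and 0.831 times its 16 w level in cluster 6. Ibsp (bone sialoprotein) stood at 120.0 and 329.9 CPM, a ratio of 2.75 (2.68 to 2.82), and at 1.02 without cluster 8. Enpp2 (autotaxin) stood at 81.3 and 193.0 CPM, and its ratio was 1.78 without cluster 8 and 1.83 with clusters weighted equally. Mgp, an inhibitor of calcification, stood at 3103 and 5410 CPM, a ratio of 1.74 (1.73 to 1.75). Ibsp, Col2a1, Bglap and Alpl were among the 10 leading genes of cluster 8. Bglap (osteocalcin) and Alpl (alkaline phosphatase), each under 10 CPM in both libraries and named after their values were seen, stood at 0.898 and 7.04 CPM and at 0.422 and 7.24 CPM. Markers of hypertrophic chondrocytes and osteoblasts summed to 3.16 CPM at 16 w and 13.7 at 78 w. Without cluster 8 the median of the mineralization list was 1.29, with all 10 members still above 1.

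Of 16 measured chemokines and cytokines, 6 were at least 2-fold higher at 78 w and none was 2-fold lower (37.5% against 1.20% of all genes), with a median ratio of 1.76. Cxcl2, which attracts neutrophils, stood at 14.1 CPM at 16 w and 48.7 at 78 w, with a ratio of 3.45 (3.22 to 3.70), and was higher in 7 of 8 clusters. Ccl2, which attracts monocytes, stood at 12.8 and 57.3 CPM, a ratio of 4.49 (4.19 to 4.82), and Ccl7, its neighbour on chromosome 11, at 19.5 and 64.8 CPM. In cluster 5, led by Pi16, Ccl2 stood at 55.8 and 381.0 CPM. With clusters weighted equally the Ccl2 ratio was 1.45 and the Ccl7 ratio 1.48. The 1% of cells with the most Ccl2 held 70.7% of its UMIs at 16 w and 75.45% at 78 w. For Cxcl2 these shares were 76.8% and 61.8%, for Ccl7 81.7% and 58.7%, and for Il33 59.1% and 36.4%. For Tnfrsf11b they were 18.1% and 16.8%. Tnfrsf11b (osteoprotegerin), the decoy receptor that blocks osteoclast formation, stood at 335.8 and 837.5 CPM, a ratio of 2.49 (2.46 to 2.53), and was higher in all 8 clusters. Il33, a nuclear alarmin, stood at 7.25 and 23.8 CPM, and Cxcl13, which attracts B cells, at 3.39 and 13.3 CPM. Cxcl13 was confined to few cells, with all its UMIs at each age in the 1% of cells with the most. Its ratio was 1.37 without barcodes holding Col22a1, Tspan15, Procr or Pi16 and 1.43 with the rule at 3%. Cxcl14 was lower at 78 w, at 308.0 and 185.7 CPM with a ratio of 0.603 (0.591 to 0.616).

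Cxcl1 and Cxcl2 are neighbouring genes of like function on chromosome 5, and Cxcl1 stood at 256.3 CPM at 16 w and 447.2 at 78 w, with a ratio of 1.74 (1.71 to 1.78) that was above 1 in all 8 clusters. Their promoters are shown because these genes were higher together and both hold a match to a consensus form of the NF-kB motif in the 250 bases before the start. This motif, searched on both strands, occurred in 0.356% of 32851 such windows. The sequences are from RefSeq on GRCm38.p6, at chr5:90890995-90891244 for Cxcl1 and chr5:90903649-90903898 for Cxcl2, both on the plus strand, with the match in capitals. The genes were chosen after their values were seen, so this share is no test of the match, and a match is not a measured site. A part of NF-kB in these levels was not tested.
Cxcl1: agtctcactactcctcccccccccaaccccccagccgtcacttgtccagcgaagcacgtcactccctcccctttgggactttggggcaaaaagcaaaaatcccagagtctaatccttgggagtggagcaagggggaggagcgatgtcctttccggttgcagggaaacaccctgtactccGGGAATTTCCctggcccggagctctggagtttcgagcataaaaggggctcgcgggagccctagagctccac
Cxcl2: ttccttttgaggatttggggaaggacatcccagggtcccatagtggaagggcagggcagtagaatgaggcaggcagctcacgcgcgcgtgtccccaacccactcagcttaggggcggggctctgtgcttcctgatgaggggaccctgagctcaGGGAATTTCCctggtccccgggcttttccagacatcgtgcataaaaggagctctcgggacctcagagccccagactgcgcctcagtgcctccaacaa

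Complement and acute phase genes had a median ratio of 1.49, and 4 of 13 were at least 2-fold higher at 78 w. C3, the central complement protein, stood at 85.0 and 210.0 CPM, a ratio of 2.47 (2.40 to 2.54), and was higher in all 8 clusters. C1s1, a protease that starts the classical pathway, stood at 19.1 and 41.9 CPM, and Lcn2, which binds iron-carrying siderophores, at 182.3 and 493.7 CPM, a ratio of 2.71 (2.66 to 2.76). C4b stood at 352.9 and 680.2 CPM, just under 2-fold. Saa3, an acute phase apolipoprotein, had a ratio of 3.84 (3.30 to 4.49) but no common direction. It was higher in 2 of the 5 clusters with at least 10 UMIs, and at 0.692 with clusters weighted equally. Of 22 genes of the interferon response and antigen presentation, 1 was past 2-fold, Ly6a, also a marker of adventitial fibroblasts, at 65.6 and 169.2 CPM. In this list B2m, the light chain of class I molecules, stood at 399.0 and 361.2 CPM and H2-D1, a class I heavy chain, at 375.3 and 493.7 CPM.

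Genes of senescence and its secretory phenotype went both ways: 5 of 23 were at least 2-fold higher at 78 w and 1 at least 2-fold lower (Igfbp3), with a median ratio of 1.12. Those higher were Ccl2, Ccl7, Cxcl2, Tnfrsf11b and Igfbp4, 4 of which the list shares with the chemokines above. The cell cycle inhibitor gene Cdkn1a stood at 501.3 and 532.3 CPM. Cdkn2a, whose product p16 is widely used as a mark of senescence, lay below 10 CPM and is named after its values were seen. It had 9 UMIs at 16 w and 87 at 78 w, with a ratio of 8.44 (4.24 to 19.1). At 78 w it had a UMI in 0.103% of thinned cells and in 0.372% of cells unthinned, and at 16 w in 0 of 7121 thinned cells and 0.112% unthinned, so that thinning to 1000 UMIs is too shallow to give its share at that age. It was not seen in thinned endothelial cells of either age, 547 and 619 cells with upper limits of 0.672% and 0.594%. These limits lie above the thinned stromal shares, so no difference between the cell types can be read.

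Other genes with the largest ratios belonged to no single list. Lrg1, a secreted leucine-rich glycoprotein, had a ratio of 23.9 (17.3 to 34.0). This was the largest among measured genes with a UMI in at least 1% of 78 w cells. Lrg1 held 38 UMIs and 0.517 CPM at 16 w and 1042 UMIs and 12.4 CPM at 78 w. It was higher in all 6 clusters with at least 10 of its UMIs, but its ratio was 5.71 when barcodes with excluded markers were kept. In endothelial cells, where Lrg1 was far higher, it stood at 305.1 and 381.7 CPM. Pcsk5, a proprotein convertase, stood at 33.0 and 195.4 CPM, a ratio of 5.92 (5.67 to 6.18), and was higher in all 8 clusters by 1.99 to 24.4 times. Gpx3, a secreted glutathione peroxidase, stood at 322.0 and 978.9 CPM, a ratio of 3.04 (3.00 to 3.08), and Inhba, which encodes the activin A subunit, at 145.7 and 395.2 CPM. Sfrp4, a secreted Wnt inhibitor, stood at 17.5 and 71.8 CPM, and Igfbp4, which binds insulin-like growth factors, at 77.7 and 184.1 CPM. The homeobox gene Msx1 stood at 21.1 and 53.0 CPM. Ctla2a stood at 2.23 and 13.3 CPM, but endothelial cells held it at 1281 and 1255 CPM, its ratio was 1.44 when barcodes with excluded markers were kept, and reads may be shared with its close relative Ctla2b. F5 (coagulation factor V), Krt16, Tesc, PISD, Pltp, Scube1, Srgn and Efemp1 had ratios between 4.29 and 5.73. Without cluster 8 the ratio was 2.16 for Scube1 and 3.73 for F5, and without clusters 5 and 8 it was 2.03 for Efemp1 and 2.27 for Sfrp4. With clusters weighted equally it was 2.94 for Krt16, and with excluded-marker barcodes kept it was 3.09 for Pltp. At 78 w, 91.9% of the Krt16 UMIs lay in 78 cells. Srgn had a UMI in 31.4% of thinned endothelial cells at 16 w and 37.8% at 78 w. Fth1, the heavy chain of ferritin, had the largest gain in CPM, from 8638 to 14320, a ratio of 1.66 (1.65 to 1.66), and was higher in all 8 clusters.

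Immediate early genes were lower as a group. Of 34 measured, 31 had ratios below 1, 3 were at least 2-fold lower at 78 w (8.82% against 0.396% of all genes) and none was 2-fold higher, with a median ratio of 0.742. Fos, a subunit of the AP-1 transcription factor, stood at 3836 CPM at 16 w and 1910 at 78 w, with a ratio of 0.498 (0.495 to 0.501). Egr1, a zinc finger factor induced by growth factors and stress, stood at 1030 and 507.8 CPM, a ratio of 0.493 (0.487 to 0.499), and Egr2 at 21.8 and 8.56 CPM. Fos and Egr1 lay on the limit, and missed it under 10 and 9 of 15 alternatives, with ratios up to 0.592 and 0.570. Egr2 missed it under 1, at 0.556 with clusters weighted equally. In that setting all 3 were thus short of 2-fold, and the median of the list was 0.851. Within clusters the list median was above 1 in 1 of 8, cluster 8, at 1.04. The Jun gene stood at 1899 and 1211 CPM, Dusp1, a phosphatase that shuts off stress kinases, at 1946 and 1738 CPM, and Nfkbia at 2106 and 1996 CPM. Fos was lower in 7 of 8 clusters and 1.41 times its 16 w level in cluster 8. In endothelial cells of the same libraries the same 34 genes had a median ratio of 1.04, and Fos stood at 2613 and 2842 CPM. Thinned endothelial cells with a Fos UMI made up 65.1% and 58.0%. The 20 heat shock genes had a median of 0.911, none of them past 2-fold, with Hspa8 at 1989 and 1547 CPM.

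Metallothioneins, small proteins that bind zinc and copper, were also lower at 78 w. Mt2 stood at 4989 CPM at 16 w and 2667 at 78 w, with a ratio of 0.535 (0.532 to 0.537), and Mt1 at 5534 and 3674 CPM, a ratio of 0.664 (0.661 to 0.667). Mt2 was below its 16 w level in all 8 clusters and Mt1 in 7 of 8, the exception being cluster 5. Both belong to a list of 12 measured glucocorticoid-responsive genes, of which 10 had ratios below 1 and none passed 2-fold, with a median of 0.768. In endothelial cells Mt2 stood at 1475 and 804.9 CPM, which was 29.6% and 30.2% of its stromal level, close to the shares that Prg4 reached there (33.3% and 30.04%), so that background from stromal RNA and endothelial expression cannot be told apart. In the list of 34 antioxidant, metal and detoxification genes that also holds both, the median was 1.05.

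The promoters of Mt1 and Mt2, which lie beside each other on chromosome 8, are shown because both genes were lower together and metallothionein promoters are a classic case of metal response elements. The core of that element was searched on both strands as TGCACNC or TGCGCNC in the 250 bases before the start. Mt1 held 1 match and Mt2 held 3, and 21.4% of the 32851 windows held at least 1, and 1.26% at least 3. Beyond the end of these windows lay 2 more matches for Mt1 and 1 for Mt2, which are not shown, so the counts depend on the window. The genes were chosen after their values were seen, so these shares are no test of the matches, and a match is not a measured site. A part of metal response in these levels was not tested. The sequences are from RefSeq on GRCm38.p6, at chr8:94178839-94179088 for Mt1 and chr8:94172368-94172617 for Mt2, both on the plus strand, with matches in capitals.
Mt1: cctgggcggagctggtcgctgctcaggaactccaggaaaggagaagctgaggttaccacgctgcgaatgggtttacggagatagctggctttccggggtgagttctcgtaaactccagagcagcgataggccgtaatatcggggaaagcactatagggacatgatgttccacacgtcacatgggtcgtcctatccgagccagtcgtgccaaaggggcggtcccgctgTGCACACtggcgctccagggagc
Mt2: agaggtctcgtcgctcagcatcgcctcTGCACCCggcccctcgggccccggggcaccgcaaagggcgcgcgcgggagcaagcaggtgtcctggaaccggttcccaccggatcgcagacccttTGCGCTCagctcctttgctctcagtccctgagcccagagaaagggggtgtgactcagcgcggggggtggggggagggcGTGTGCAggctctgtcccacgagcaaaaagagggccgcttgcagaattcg

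**Figure D3:**
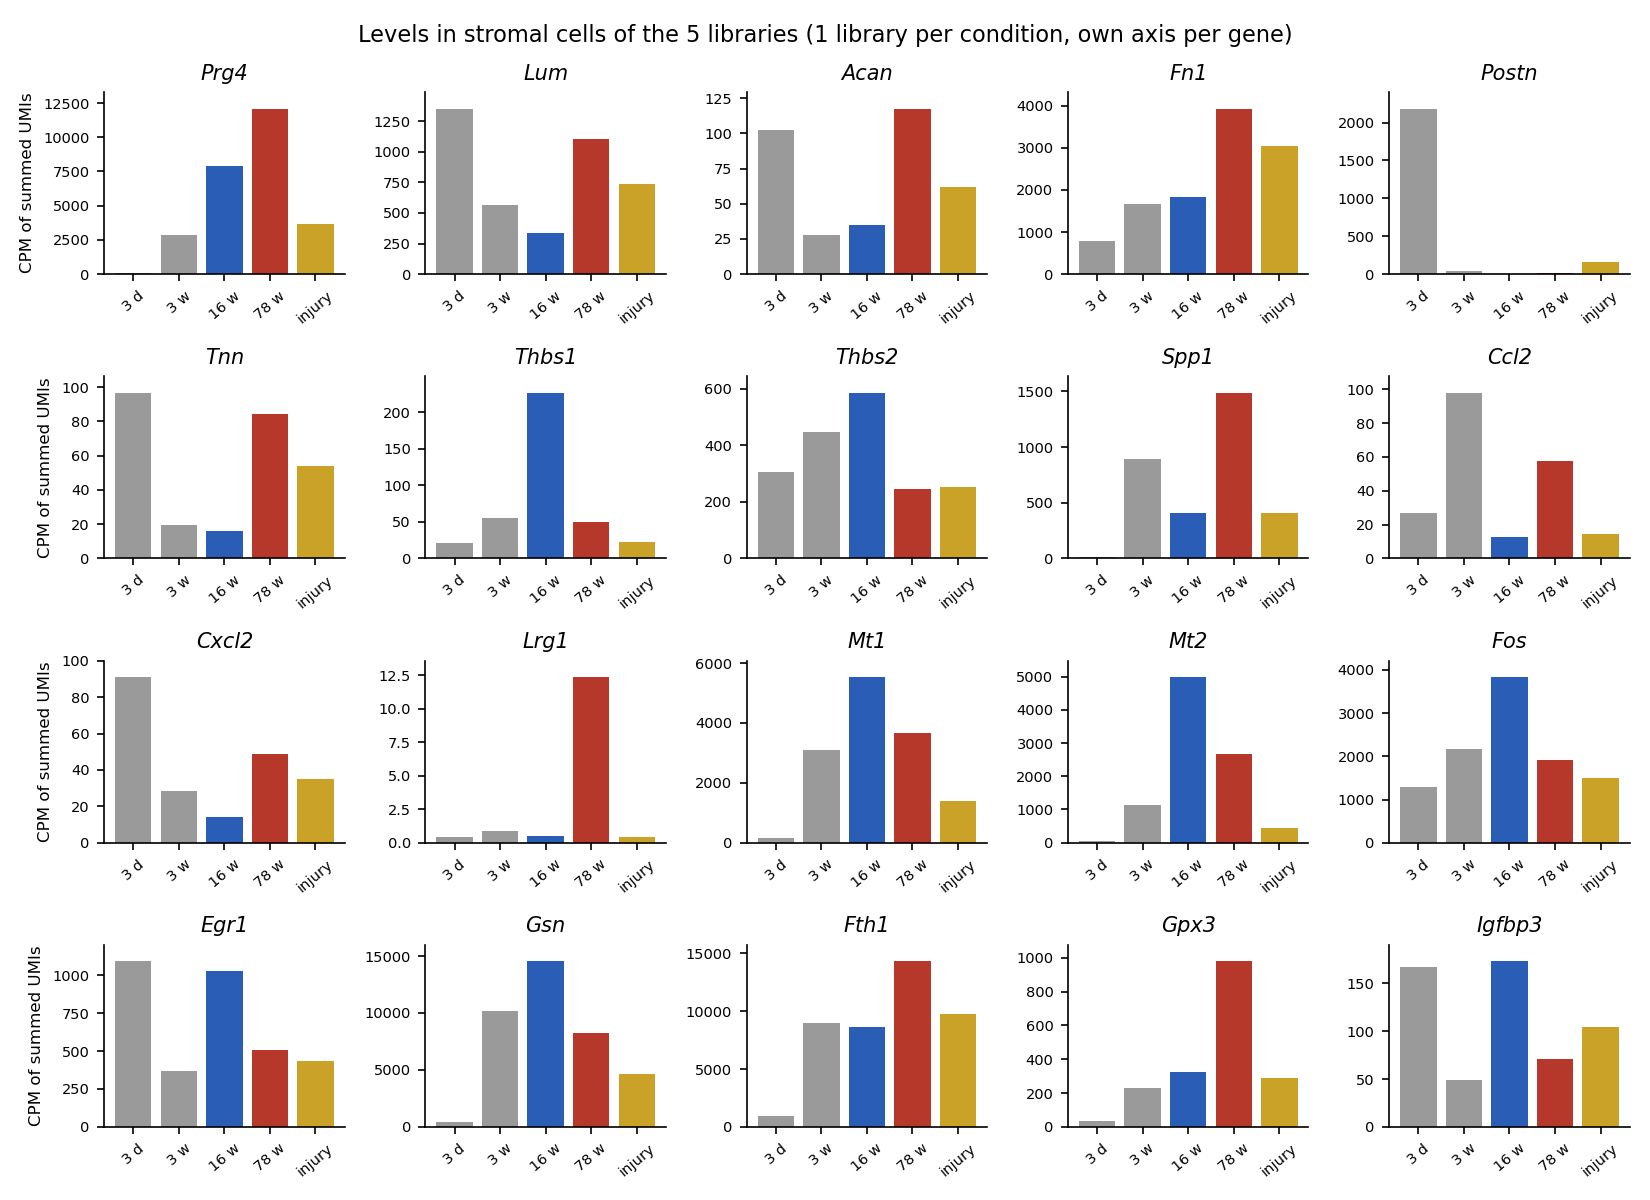
CPM of 20 genes (vertical axes, each with its own scale from 0) in stromal cells of the 5 libraries, 1 bar per library: 3 d and 3 w (grey), 16 w (blue), 78 w (red) and the injured discs (yellow). Mt2, Gsn, Thbs1 and Fos are highest at 16 w, and Prg4, Fn1, Spp1, Gpx3, Fth1 and Lrg1 are highest at 78 w.

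Transcripts of the respiratory chain separated by genome. All 13 mitochondrially encoded genes had ratios below 1, with a median of 0.775, and none reached 2-fold. For example, mt-Co3, a subunit of cytochrome c oxidase, stood at 4706 CPM at 16 w and 3089 at 78 w, with a ratio of 0.656 (0.653 to 0.660). Of 74 nuclear-encoded genes of the chain, 68 had ratios above 1, with a median of 1.20 and none past 2-fold. The median was above 1 for the nuclear genes and below 1 for the mitochondrial genes in each of the 8 clusters and under each scaling tried. In endothelial cells the medians were 0.963 and 0.858. The mitochondrial genes are part of the limit on mitochondrial UMIs in the rule, and with that limit at 10% mt-Co3 kept its ratio within its interval. Genes of glycolysis and hypoxia had a median of 1.11 over 31 members, of which 20 were above 1, 11 below and none past 2-fold, with Gapdh at 1007 and 1317 CPM and Pkm at 420.7 and 610.2 CPM. Cytosolic ribosomal protein genes had a median of 1.05 over 82 members, and reads of their many pseudogenes may be shared with them.

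The insulin-like growth factor axis and imprinted growth genes had a median ratio of 0.829 over 18 members, with 13 below 1, 2 at least 2-fold lower and 1 at least 2-fold higher. Igfbp3, the main carrier of insulin-like growth factors in blood, stood at 173.1 CPM at 16 w and 70.7 at 78 w, with a ratio of 0.408 (0.396 to 0.421), and Peg3, a paternally expressed zinc finger gene, at 142.3 and 68.5 CPM. Igfbp3 was lower in 7 of 8 clusters. Igfbp5, a binding protein, stood at 3214 and 2580 CPM, and Meg3, an imprinted long noncoding RNA, at 1331 and 1055 CPM. Igfbp4, named above, was the member 2-fold higher.

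The other genes with the smallest ratios were Kcnk1 at 32.4 and 7.03 CPM, Cadm1, a cell adhesion molecule, at 43.0 and 11.5 CPM, and Cacna1g, a T-type calcium channel, at 47.6 and 18.3 CPM. Each of the 3 was lower in all 8 clusters. Spon1, Meox1, Epha4, Cck, Fam71a and 6330403K07Rik had ratios between 0.357 and 0.402, as did the predicted genes Gm10600 and Gm26802, while Gm13305 had 0.234. For predicted genes, reads may be shared with similar copies. The largest losses in CPM were of Malat1, a nuclear long noncoding RNA, at 45456 and 37306 CPM, and of Gsn, which encodes the actin-severing protein gelsolin, at 14537 and 8287 CPM. Gsn had a ratio of 0.570 (0.568 to 0.572), was lower in all 8 clusters, and stood at 4327 and 2082 CPM in endothelial cells. Neat1, another nuclear RNA, stood at 1981 and 1019 CPM.

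Other lists covered growth factor and patterning pathways. In TGF-beta and BMP genes 4 of 36 were at least 2-fold higher (Scube1, Chrdl2, Inhba and Gdf10) and none lower, with a median of 0.925. These 4 are 11.1% of the list, against 1.20% of all genes. Id3, a target of BMP signalling, stood at 943.5 and 670.8 CPM. In Wnt genes 1 of 15 was 2-fold higher (Sfrp4) and 1 was 2-fold lower, Nkd1, a feedback inhibitor of the pathway, at 19.1 and 9.45 CPM. In Notch, FGF, PDGF and VEGF genes none of 24 was past 2-fold, with a median of 0.923. Among chondrogenic, tendon and bone regulators 3 of 39 (7.69%) were at least 2-fold higher (Tnn, Msx1 and Tnmd), with a median of 0.995. Tnmd missed 2-fold under 2 of 15 alternatives, at 1.505 with clusters weighted equally, and 58.5% of its UMIs at 78 w lay in 78 cells. Sox9, the master factor of cartilage, stood at 691.2 and 714.9 CPM. Elastic fibre genes (median 0.945, 18 members) had 1 member past 2-fold, Efemp1, and cell cycle genes (0.924, 8), circadian clock genes (0.970, 18), nuclear and chromatin genes (1.02, 13) and genes of endoplasmic reticulum folding (1.14, 39) had none. Lipid genes (1.15, 24) and genes of glycosaminoglycan synthesis (1.07, 31) had 1 each, Pltp and Hs3st1, both higher.

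The ratios were also read within groups of like cells. Cells were clustered with each gene scaled within its own library, and 8 of 10 clusters with at least 50 cells of each age were used. Of the 91 genes at least 2-fold higher, 68 were above 1 in every cluster with at least 10 of their UMIs, and 72 were past 2-fold in the geometric mean over clusters. Of the 30 genes at least 2-fold lower, 20 were below 1 in every such cluster and 21 were past 2-fold in the geometric mean. These counts only describe how widely the differences were spread. The genes were selected on the pooled ratio of the same cells, so a common direction within clusters is partly built in. Genes with enough UMIs in few clusters also meet it more easily, and the share over all genes was not computed. Pcsk5, Tnn, Lum, Acan, Fn1, Tnfaip6, Gpx3, Inhba and C3 were higher in all 8 clusters. Markers of adventitial-type fibroblasts, which lead cluster 5, summed to 752.0 CPM at 16 w and 1126 at 78 w, and 4 of 7 measured were past 2-fold (Pi16, Ly6a, Ly6c1 and Cd248).

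**Figure D4:**
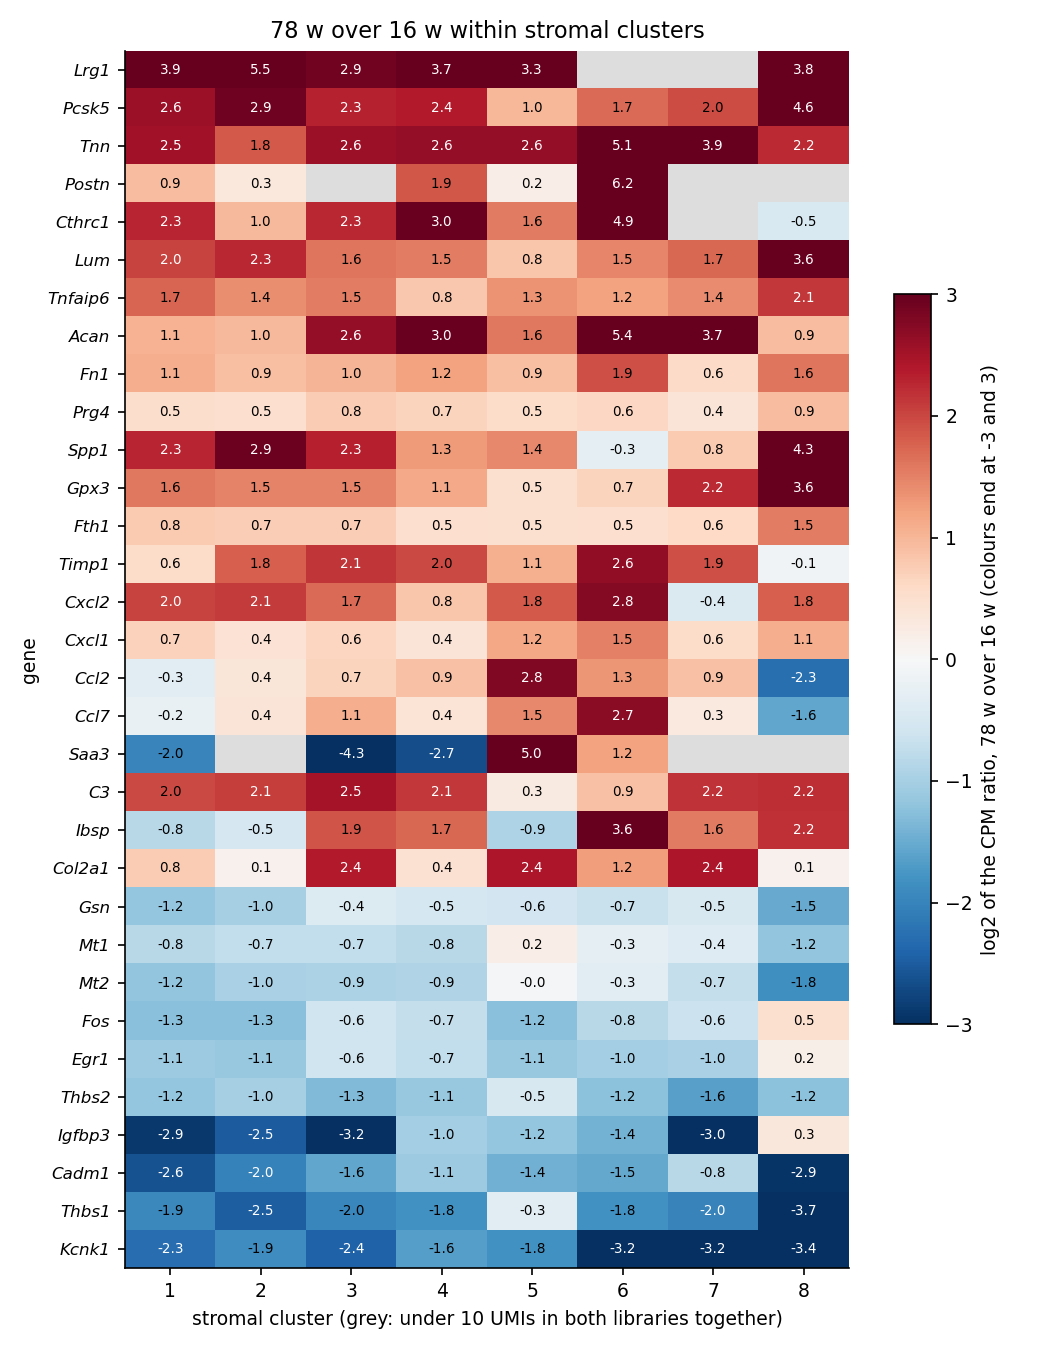
CPM ratio, 78 w over 16 w, of 32 genes (rows) within each of 8 stromal clusters (columns), as log2 in each cell, with red for higher and blue for lower at 78 w and grey where both libraries together held under 10 UMIs. Lum, Fn1 and Prg4 are red in all 8 clusters and Gsn, Thbs2 and Kcnk1 blue in all 8, while Ccl2, Saa3 and Ibsp change colour between clusters.

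The same ratio was read in endothelial cells, whose barcodes also held transcripts of stromal genes. Prg4, a gene of joint lining that endothelial cells should lack, stood there at 2619 CPM at 16 w and 3634 at 78 w, which was 33.3% and 30.04% of its stromal level. Thinned endothelial cells with a Prg4 UMI made up 22.1% and 31.2%, fewer than an even spread of these UMIs would give. Whether they came from free RNA or from barcodes of mixed cells was not tested. The endothelial ratios were on the same side of 1 as the stromal ones for Prg4 (1.39), Fn1 (2.05), Spp1 (4.08) and Gsn (0.481), and the part of stromal RNA in them was not tested. They were on opposite sides for Fos (1.09 in endothelial and 0.498 in stromal cells) and Igfbp3 (1.14 and 0.408). Thinned endothelial cells with a Fos UMI, however, made up 65.1% (60.9 to 69.1) at 16 w and 58.0% (54.0 to 61.9) at 78 w. This share was lower at 78 w, as the stromal level of Fos was. The difference between the cell types was not tested.

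**Figure D5:**
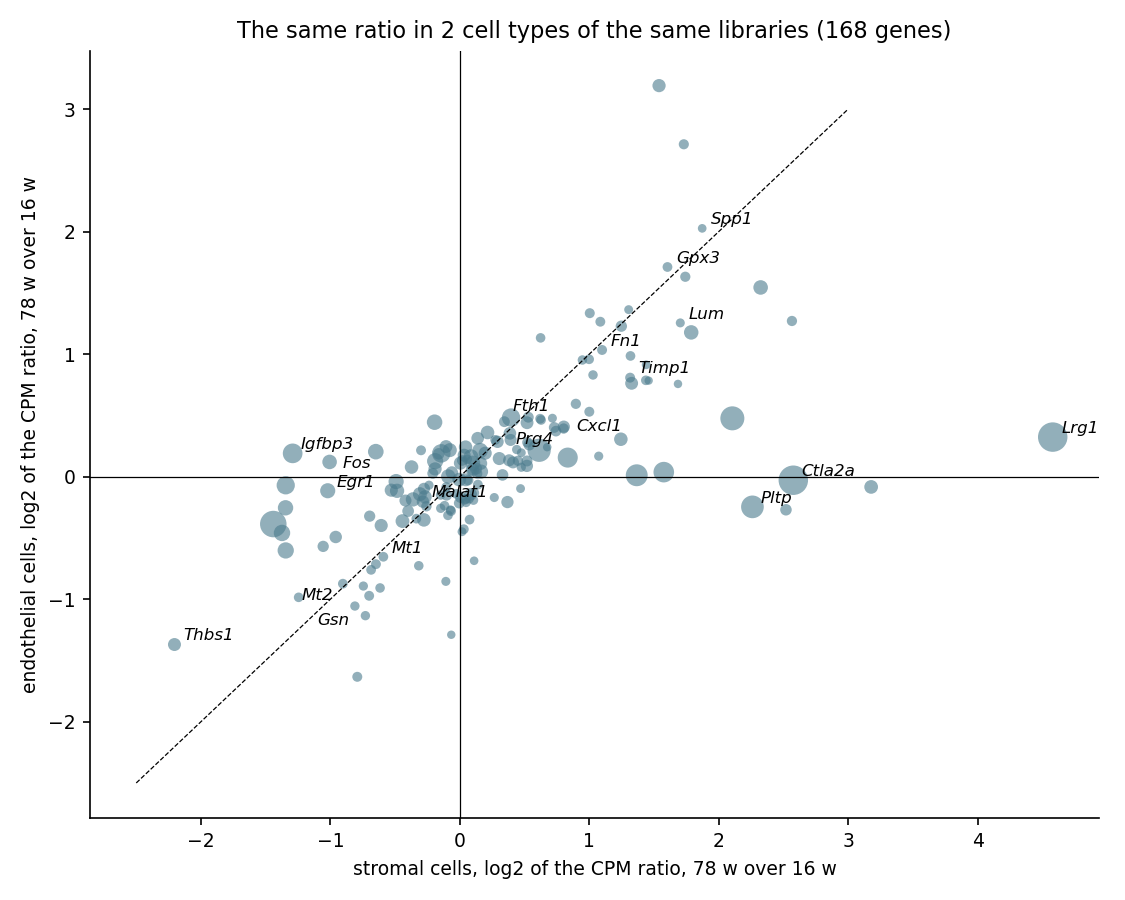
CPM ratio, 78 w over 16 w (log2), in endothelial cells (vertical axis) against stromal cells (horizontal axis) of the same libraries for 168 named or listed genes with at least 100 endothelial UMIs, with larger points for genes whose endothelial level is a larger share of the stromal level at 78 w. The dashed line marks equal ratios, near which Fn1, Mt2 and Mt1 lie, while Fos, Igfbp3 and Lrg1 lie away from it.

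In the other libraries, set beside these without a comparison, the genes that differ between 16 w and 78 w had no common course. Postn stood at 2185 CPM at 3 d, 48.0 at 3 w and 164.4 in the injured discs, all above the 13.0 CPM of 78 w. Cthrc1 stood at 435.1, 9.43 and 48.9 CPM, so that its 3 w level lay below that of 78 w. Lum stood at 1352 CPM at 3 d, 566.0 at 3 w and 737.2 in the injured discs, so that 16 w held the lowest of its 5 values. Thbs1 stood at 20.5, 55.3 and 22.9 CPM, so that 16 w stood above the other 4. Mt2 stood at 54.0, 1124 and 451.7 CPM and Lrg1 at 0.453, 0.854 and 0.432 CPM. Prg4 stood at 113.6, 2873 and 3700 CPM and Fn1 at 791.5, 1675 and 3043 CPM. The 16 w library, the only one of its age, thus held the highest of 5 values of Thbs1 and Mt2.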

How the data were processed

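Discs were digested with Pronase and Collagenase P, and 1 library per condition was made with the 10x Genomics Single Cell 3′ v2 kit. The authors deposited UMI counts per gene and barcode, raw and without normalization, for barcodes taken as cells. Per the file headers these came from Cell Ranger 4.0.0, while the submitters' processing notes name version 3.1 and mm10. Gene positions are from GENCODE M21 (27645 of 27998 gene identifiers matched). From the counts, UMIs were summed over stromal cells, scaled to CPM and compared as a ratio. A count under 3 was taken as 3. Intervals (95%, scipy 1.17.1) are exact Poisson for CPM, binomial-based for ratios and Clopper-Pearson for shares. With 1 library per age, called means past 2-fold among genes of at least 10 CPM. Genes named are the 15 largest and 15 smallest ratios and the 8 largest and 8 smallest differences. These ranks cover genes with a UMI in at least 1% of cells at the age of higher level. Per list, the members past 2-fold were named, with up to 4 others of high count. Clusters were formed on 2000 variable genes and 30 components (scikit-learn 1.9.0, Leiden resolution 0.5). No doublet caller was run, and leaving out the 5% of cells with the most UMIs stands in for it. The ratio step was tested on simulated data. Members and lists were chosen with earlier results of these data known. The alternatives were other scalings, cell limits, cell weights and clusters with equal weight.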

Additional observations from a re-analysis of the deposited data

Results flagged for a closer look

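Pltp, Igfbp3 and Fos had CPM ratios, 78 w over 16 w, on opposite sides of 1 in stromal and endothelial cells of the same libraries, with an endothelial interval that leaves out 1. Pltp had a ratio of 4.79 in stromal cells and 0.843 in endothelial cells, Igfbp3 of 0.408 and 1.14, and Fos of 0.498 and 1.09 (1.087 to 3 decimals). The share of thinned endothelial cells with a Fos UMI was lower at 78 w, at 65.1% and 58.0%, unlike its endothelial CPM. With 1 library per age each group is a single value, and the difference between the cell types was not tested.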

How the results depend on the processing

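The count of genes at least 2-fold higher at 78 w lay between 76 and 105 and the count lower between 24 and 39 under 15 alternatives in scaling, cell limits, cell weights and mix of cells, against 91 and 30. At 1.5-fold they were 255 and 190, and with genes of at least 1 CPM they were 259 and 166. Of 71 named or listed genes past 2-fold, 47 stayed past it under all 15 alternatives. Of these 71, Saa3 alone changed direction. Its ratio was 0.817 without barcodes holding Col22a1, Tspan15, Procr or Pi16, and 0.692 with clusters weighted equally. It was 0.21 without clusters 5 and 8, a choice made after seeing the data. Without cluster 8 (also chosen then) Col2a1 had a ratio of 1.13 and Ibsp of 1.02. Of all 91 genes higher, 90 stayed above 1 without cluster 8 and 89 without clusters 5 and 8. Scaling moved the median of all genes by at most 0.046 on the log2 scale. The cause of these shifts was not tested. Has1 missed 2-fold under 1, Igfbp4, C1s1 and Peg3 under 3 each and Nkd1 under 5 of the 15. No paired analysis was possible because each age is 1 library. Depth limits genes under 10 CPM, and droplets of low depth hold free RNA.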
